A study of Mus musculus with 30 samples.

Results

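Chemokine receptors of B cells were followed as a set of 6 genes, Cxcr4, Cxcr5, Ccr7, Ccr6, Ccr9 and Cxcr3. The genes were chosen by name and by no threshold on a measured value, although earlier results of these data were known, and all 6 are listed in both deposited expression tables, which together hold 28271 gene symbols. Expression was measured by RNA-seq in 18 libraries of mouse splenic B cells and CLL-like cells, and the unit is TPM, in which a gene's reads are scaled by its length and by the library. The study examined mice in which a missense change of Ikzf3 (L161R) is switched on in B cells only. The product of Ikzf3, Aiolos, belongs to the Ikaros family of DNA-binding zinc finger proteins and acts in lymphocytes.

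All mice were C57BL/6. The young table holds B cells of 3 wild-type libraries and of 3 libraries labelled Ikzf3 fl/fl, called young homozygous here. The labels give an age of 3 months for these, and the protocol 2 to 3 months. The aged table, from mice of 15 to 18 months, holds B cells of 3 wild-type libraries, 5 libraries of CLL cells and 4 libraries of non-CLL B cells. CLL cells were sorted as B220+CD5+ cells from leukaemic mice, and non-CLL cells came from the same mice. Libraries 1, 2, 4 and 5 of the CLL cells and 2, 4 and 5 of the non-CLL cells are labelled Ikzf3 fl/+, and library 6 of each is labelled Ikzf3 fl/fl. All other B cells were selected with magnetic beads; the stated purity for aged mice is 85% or more. The aged protocol names spleens or femurs as the source, whereas the cell type label is splenic. Neither the promoter that drives the recombinase nor the number of founder lines is given in the sources used here, and the labels do not say that each young library is a separate animal, so p-values measure the spread between these libraries, which may be partly technical.

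Chemokine receptors are G protein-coupled receptors of the cell surface that turn a gradient of a chemokine into directed movement through the inhibitory G protein Gαi. In the spleen they sort B cells: CXCR5 and its ligand CXCL13 draw cells into the follicle, CCR7 and its ligands CCL19 and CCL21 draw them to the T cell zone and its border, and CXCR4 holds cells near stroma that makes CXCL12. CCR6 (ligand CCL20) and CCR9 (ligand CCL25) are known for traffic to mucosal sites, and CXCR3 (ligands CXCL9, CXCL10 and CXCL11) for traffic to inflamed tissue and for its induction by T-bet. CCR9 is also carried by plasmacytoid dendritic cells, and CXCR3 by activated T cells and NK cells.

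Several libraries stood apart before any receptor was compared. The deposited tables were tested separately, because the aged table carried a floor of signal that the young table lacked: the median olfactory receptor gene, a class that B cells are not known to use, lay at 0 in all 6 young libraries, between 0 and 0.75 TPM in aged wild-type, between 7.18 and 9.21 TPM in non-CLL cells and between 1.08 and 2.71 TPM in CLL cells, except 9.66 TPM in CLL library 6. Aged wild-type library 2 had the lowest B cell marker sum of its group, 6343 TPM against 12094 and 14137 TPM for 8 markers. It also had the highest sums of T cell markers (620 against 7.84 and 14.2 TPM) and plasmacytoid dendritic cell markers (457 against 93.8 and 95.7 TPM). Most of that T cell sum was 1 gene, Cd3g at 596 TPM, while Cd3e was 0.281 TPM. In the young table, 10 myeloid markers summed to between 1434 and 5354 TPM in wild-type and to between 189 and 443 TPM in homozygous libraries. Non-CLL cells had the highest sums of 6 NK cell markers (140 to 707 TPM, against 11.8 to 59.3 TPM in CLL cells) and of 6 plasmacytoid dendritic cell markers (452 to 1801 TPM, against 126 to 328 TPM). None of these markers was at 0 in every library of a group. The sort marker Cd5 lay between 16.3 and 36.1 TPM in CLL cells, between 5.54 and 11.2 TPM in non-CLL cells and between 0.377 and 1.16 TPM in aged wild-type cells. In every non-CLL library Cd5 was below the 95th percentile of the olfactory receptor genes, 14.1 to 27.1 TPM. It was therefore not told from the floor in non-CLL cells. Ikzf3 itself, in which TPM does not show the changed base, lay between 214 and 276 TPM in young wild-type, 381 and 438 TPM in young homozygous, 407 and 932 TPM in aged wild-type, 354 and 651 TPM in non-CLL and 342 and 1056 TPM in CLL libraries. In bulk libraries of this kind, fewer cells of a type and less RNA per cell cannot be told apart.

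In young wild-type B cells Cxcr4 (mean 295 ± 79.3 TPM, SD, n = 3) and Cxcr5 (282 ± 42.1 TPM) were the highest of the 6, and their ranges overlapped. Ccr7 followed at 174 ± 14.4 TPM and Ccr6 at 96.9 ± 28.8 TPM, each apart from the next gene in every library. Cxcr3 (5.55 ± 1.60 TPM) and Ccr9 (1.52 ± 0.922 TPM) were low. In young homozygous cells the order was Cxcr4, Ccr7, Cxcr5 and Ccr6, with no overlap between neighbours, so that Ccr7 and Cxcr5 had changed places, and Cxcr3 and Ccr9 overlapped at the bottom. In the aged table the order was looser. Aged wild-type cells had Cxcr5 (168 ± 106 TPM, n = 3) and Ccr7 (140 ± 23.6 TPM) at the top, and the ranges of all neighbours down to Cxcr4 overlapped. In non-CLL cells every neighbour in the order overlapped, from Ccr7 (134 ± 78.2 TPM, n = 4) down to Ccr6 (56.2 ± 26.6 TPM). In CLL cells the set divided into an upper group of Ccr7, Cxcr5 and Cxcr4, with Cxcr5 above Cxcr4 in 5 of 5 libraries and Cxcr4 above Ccr6 in 5 of 5, and a lower group of Ccr6, Ccr9 and Cxcr3 with means between 3.97 and 6.30 TPM. Ccr7 had the highest mean of the CLL group, but it was above Cxcr5 in only 1 of 5 libraries.

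The young comparison asks what the homozygous mutation does to the set in B cells of young mice. Of the 6 receptors, 4 passed the test (limma's moderated test on log2(TPM + 1), adjusted p under 0.05 over all genes): Cxcr4 and Ccr7 rose, and Cxcr5 and Cxcr3 fell. That count stands against a background in which 51% of the 12219 genes tested were called, 38.4% higher and 12.6% lower, so 4 of 6 is near the share of all genes and is not a result about the set. The groups did not overlap for 4 of the 6, against 61.4% of all genes. The median log2 change of the 6 was 0.08, beside 0.18 for all genes tested. Rescaling the libraries by a trimmed mean moved that median of all genes by -0.17 and the calls from 4698 higher and 1539 lower to 3072 higher and 2649 lower, and quantile normalization gave 3091 higher and 2519 lower. The 4 receptor calls and their directions stood under both rescalings.

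Cxcr4, the receptor for CXCL12, showed the largest change of the set in young cells. Its level was 361, 317 and 207 TPM in the wild-type libraries (1, 2 and 3), and 834, 820.4 and 812 TPM in the homozygous ones. The groups did not overlap, and the homozygous libraries lay close together while wild-type library 3 was the lowest. The log2 change was 1.51 (SE 0.20, limma adjusted p = 0.00122), a 2.86-fold rise with a 95% interval of 2.07 to 3.95. Cxcr4 was called in all 17 alternative settings. The gene lies at chr1:128588199-128592299 (GRCm38.p6, RefSeq), and its promoter window, 250 bases before to 50 after the start site on the minus strand at chr1:128592250-128592549, is shown because the gene had the largest young change:
Cxcr4: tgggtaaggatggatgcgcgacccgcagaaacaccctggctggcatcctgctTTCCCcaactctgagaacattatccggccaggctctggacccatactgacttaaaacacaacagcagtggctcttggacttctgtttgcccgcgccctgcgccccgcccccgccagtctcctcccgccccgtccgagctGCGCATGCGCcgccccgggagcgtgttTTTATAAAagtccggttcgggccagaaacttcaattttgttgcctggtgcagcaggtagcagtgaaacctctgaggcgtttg
The capitals mark every match to the motifs searched on either strand: the Ikaros family core, the NRF-1 palindrome and the TATA box. The Ikaros core, GGGAA or TTCCC, is in 62.7% of the 32851 RefSeq windows of this length, the NRF-1 motif in 0.971% and the TATA box, TATAAA read on either strand, in 13.6%. TTCCC began 198 bases before the start site, the NRF-1 motif 59 bases before it, and the TATA letters, which overlap between the strands, 32 and 30 bases before it. A match is a description of the letters and not evidence of binding.

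Ccr7, the receptor for CCL19 and CCL21, was 186, 179 and 158 TPM in young wild-type libraries 1, 2 and 3 and 270.1, 273 and 241 TPM in the homozygous ones. The lowest homozygous library was above the highest wild-type library. Its log2 change was 0.58 (SE 0.09, adjusted p = 0.00119). Cxcr5, the receptor for CXCL13, moved the other way, from 255, 259.9 and 330.0 TPM in the wild-type libraries to 157, 175 and 172 TPM in the homozygous ones. Every homozygous library was below every wild-type library. The log2 change of Cxcr5 was -0.73 (SE 0.11, adjusted p = 0.00105), a 1.66-fold fall. Ccr7 and Cxcr5 were both called in 17 of 17 alternative settings.

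Because these receptors draw cells to different zones, their balance within a library was also taken, which does not move with library scaling. The log2 ratio of Cxcr4 to Cxcr5 was 0.50, 0.29 and -0.67 in young wild-type libraries 1, 2 and 3 and 2.41, 2.22 and 2.23 in the homozygous ones. The means were 0.04 ± 0.62 and 2.29 ± 0.10 (SD, n = 3), a difference of 2.25, with no overlap. The log2 ratio of Ccr7 to Cxcr5 was -0.45, -0.54 and -1.05 in wild-type and 0.78, 0.63 and 0.49 in homozygous libraries, so its sign differed between the groups in every library. For both ratios an exact permutation test, two-sided, gave p = 0.1, the smallest that 3 libraries against 3 allow, and the adjusted value over the 8 ratio tests made was 0.4. With these group sizes this test cannot place either ratio under 0.05.

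Cxcr3, the T-bet-induced receptor for CXCL9, CXCL10 and CXCL11, was 5.00, 7.35 and 4.29 TPM in young wild-type libraries 1, 2 and 3 and 2.304, 2.88 and 1.44 TPM in homozygous ones. The groups did not overlap, although all 6 values were low. The log2 change was -1.03 (SE 0.23, adjusted p = 0.00546). Without wild-type libraries 1 and 2 together, which held the most myeloid marker RNA, the log2 change was -0.75 (adjusted p = 0.0998). That fit sets 1 wild-type library against 3, with the lone library assumed to vary like the homozygous ones. The gene was not tested under a filter of 20 TPM. NK cell markers also summed higher in wild-type (23.5 to 108 TPM) than in homozygous libraries (8.01 to 14.5 TPM), and T cell markers to between 18.9 and 47.7 TPM and between 14.9 and 23.2 TPM. The part of other cells in the Cxcr3 difference was not tested.

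Ccr6 and Ccr9, the mucosal receptors, did not pass in young cells. Ccr6 was 85.5, 75.6 and 129.7 TPM in wild-type and 110.5, 98.3 and 119.6 TPM in homozygous libraries, with a log2 change of 0.21 (95% interval -0.28 to 0.70, adjusted p = 0.424). Wild-type library 3 was the highest of all 6, and without it the log2 change was 0.44 with an adjusted p of 0.0076. Ccr9 lay between 0.849 and 2.58 TPM in wild-type and between 1.19 and 1.44 TPM in homozygous libraries, with a log2 change of -0.04 (95% interval -0.60 to 0.51). The sum of the 6 receptors was 855 ± 33.6 TPM in wild-type and 1365 ± 14.5 TPM in homozygous libraries (SD, n = 3). Cxcr4 made up 34.3% ± 8.26 and 60.3% ± 0.41 of it, and Cxcr5 33.0% ± 5.92 and 12.3% ± 0.80. Neither the sum nor the shares were tested.

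**Figure D1:**
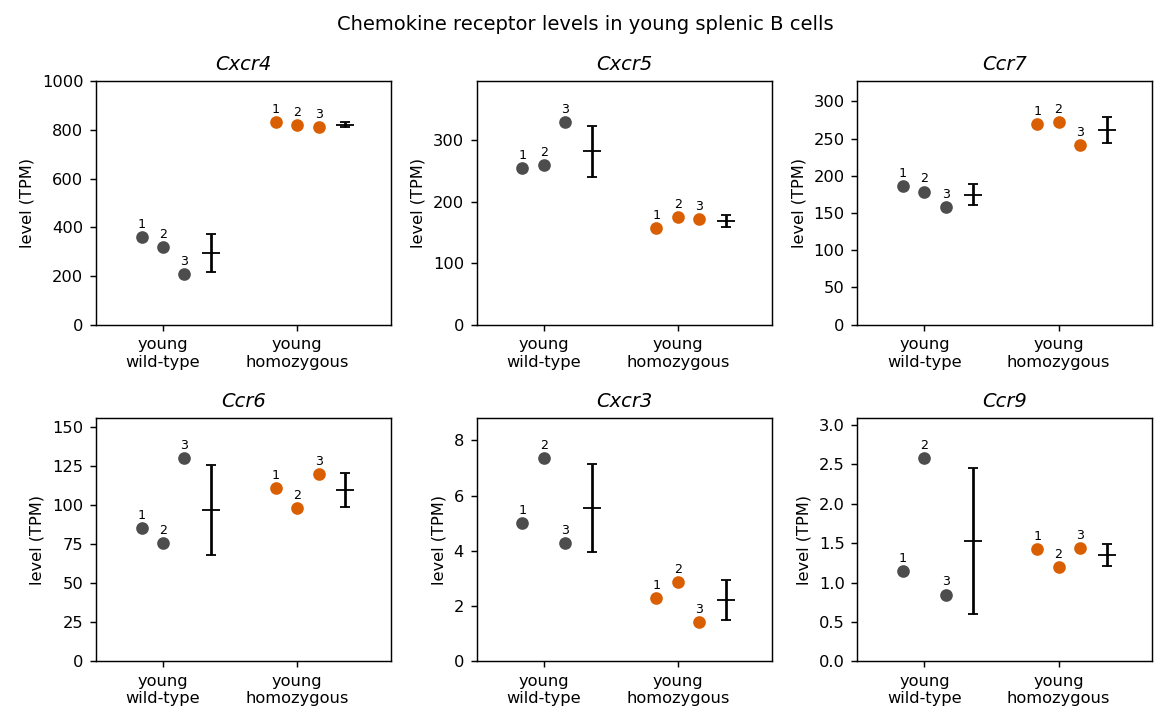
Levels (TPM, linear axes from 0) of the 6 receptors in the 3 young wild-type and 3 young homozygous libraries; points are libraries with their numbers, and the black bar beside them is the mean with its SD. Cxcr4 lies between 207 and 361 TPM in wild-type and between 812 and 834 TPM in homozygous libraries, and Cxcr5 shows the opposite order without overlap.

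The genes around the receptors were read from fixed lists. Among 28 genes of receptor signalling and desensitisation, all tested in young cells, 10 rose and none fell, with a median log2 change of 0.21, beside 38.4% of all genes called higher and a median of 0.18, so the count is near the background. Rgs1, known to dampen chemokine responses of B cells, had the largest rise of the list, a log2 change of 1.92 (SE 0.37, adjusted p = 0.0106), from between 21.3 and 52.5 TPM to between 138 and 161 TPM. Rgs2 rose by 1.57 (SE 0.22, adjusted p = 0.00194), Gna13, which restrains migration of follicular B cells, by 0.76 (SE 0.10), and Plcb2 by 0.72 (SE 0.12). Of 10 transcription factors known to act on these receptors, 8 rose and none fell, with a median of 0.59, against 38.4% of all genes called higher. Klf2, which controls homing receptors of lymphocytes, rose most, from 206 ± 13.2 to 538 ± 14.0 TPM (SD, n = 3, log2 change 1.38, SE 0.08, adjusted p = 1.44e-05), followed by Bach2 (0.98, SE 0.12) and Foxo1 (0.82, SE 0.09).

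Among the other 18 chemokine receptors, 12 were tested in young cells, and 1 rose and 3 fell, against a background of 38.4% higher and 12.6% lower. Ackr3, the scavenging receptor for CXCL12, rose by a log2 change of 0.66 (SE 0.18, adjusted p = 0.0135). The 3 that fell were Cxcr2 (-2.34, SE 0.59) and Ccr1 (-1.27, SE 0.20), both receptors of neutrophils and monocytes, and the scavenger Ackr2 (-0.66, SE 0.14). The myeloid marker sum was lower in the same libraries, with 5 of 10 markers called lower, and its part in these falls was not tested. Of 18 chemokine ligands, 8 were tested. Ccl4 rose by 1.52 (SE 0.23, adjusted p = 0.00132) and Ccl25, the ligand of CCR9, by 0.51 (SE 0.19, adjusted p = 0.0487). Cxcl9 fell by 0.48 (SE 0.17, adjusted p = 0.0408) on the log2 scale. Levels were low. In wild-type and homozygous libraries Ccl4 was 2.88 to 5.57 and 10.7 to 16.2 TPM, and Ccl25 1.06 to 1.89 and 2.16 to 3.19 TPM. Cxcl9 was 5.10 to 7.70 and 3.69 to 5.11 TPM, so its groups overlapped.

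The comparison of CLL cells with non-CLL cells asks what differs between leukaemic and other B cells of the same mice. CLL cells were sorted as B220+CD5+ cells and non-CLL cells were selected with magnetic beads. Leukaemic state and isolation therefore cannot be told apart in this comparison. Ccr6, Ccr9 and Cxcr3 were lower in CLL cells, and Cxcr4, Cxcr5 and Ccr7 were not called. These 3 of 6 stand against a background in which 5.77% of the 22316 genes tested were called, 0.744% higher and 5.02% lower. The groups did not overlap for the same 3 genes, against 8.68% of all genes. The median log2 change of the 6 was -1.82, beside -0.77 for all genes tested. That background depended on the fit: 697 genes were called in place of 1287 with the mouse number as a block, 11118 without CLL library 6, the library with the highest floor of its group, and between 325 and 741 when any other library was left out. Rescaling by a trimmed mean moved the median of all genes by 0.57 and the calls from 166 higher and 1121 lower to 253 higher and 134 lower. Quantile normalization gave 83 higher and 102 lower, and subtraction of the olfactory median 173 higher and 172 lower.

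Ccr6, the receptor for CCL20, was 22.9, 70.3, 83.5 and 47.8 TPM in non-CLL libraries 2, 4, 5 and 6, and 2.45, 5.36, 5.19, 8.20 and 10.3 TPM in CLL libraries 1, 2, 4, 5 and 6. The highest CLL library was below the lowest non-CLL library. The log2 change was -2.93 (SE 0.42, limma adjusted p = 0.000135), a 7.62-fold difference with a 95% interval of 4.18 to 13.9. It was lower in the CLL library of 4 of 4 same-numbered mice, by a log2 difference between -3.53 and -1.91. Ccr6 was called in 21 of 22 alternative settings, the exception being the fit of all aged groups together (adjusted p = 0.0576). With the mouse number as a block the log2 change was -2.69 (adjusted p = 0.00168), and within heterozygous libraries alone -3.14 (adjusted p = 0.00285).

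Ccr9, the receptor for CCL25, was 60.4, 61.8, 17.3 and 139.9 TPM in non-CLL libraries 2, 4, 5 and 6. In CLL libraries 1, 2, 4, 5 and 6 it was 2.16, 4.27, 2.04, 2.96 and 13.5 TPM, so that no CLL library reached a non-CLL library. The log2 change was -3.51 (SE 0.55, adjusted p = 0.00186), an 11.4-fold difference, lower in 4 of 4 same-numbered mice and called in all 21 alternative settings that tested it. None of the 5 CLL libraries had Ccr9 above the 95th percentile of the olfactory receptor genes of the same library, whereas all 4 non-CLL libraries did, so Ccr9 was not told from the floor in CLL cells.

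Cxcr3 was 28.4, 37.3, 53.7 and 125 TPM in non-CLL libraries 2, 4, 5 and 6, and 0.151, 7.88, 1.14, 1.51 and 9.19 TPM in CLL libraries 1, 2, 4, 5 and 6. The groups lay apart, and CLL library 1 was the lowest of all 12 aged libraries. The log2 change was -3.90 (SE 0.63, adjusted p = 0.00335), a 14.9-fold difference, lower in 4 of 4 same-numbered mice and called in 22 of 22 alternative settings. Cxcr3 was above the olfactory 95th percentile in 1 of 5 CLL libraries and in 4 of 4 non-CLL libraries, and Ccr6 in 2 of 5 and 4 of 4. The folds of these 3 genes are on the log2(TPM + 1) scale, where the added 1 TPM by itself understates the change of low genes. They also depend on the floor and the scaling, which differed between these groups. Over the alternative settings the log2 change lay between -3.63 and -1.94 for Ccr6. It lay between -4.32 and -2.22 for Ccr9 and between -4.90 and -2.22 for Cxcr3.

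Ccr6 lies at chr17:8236041-8258519, Ccr9 at chr9:123767211-123783457 and Cxcr3 at chrX:101731535-101734147 (GRCm38.p6). Their RefSeq promoter windows are shown because the 3 genes were lower together. Ccr6 has 2 start sites in the table, both on the plus strand, with windows at chr17:8235793-8236092 and chr17:8242276-8242575. The Ccr9 window is chr9:123766961-123767260 on the plus strand, and the Cxcr3 window chrX:101734098-101734397 on the minus strand:
Ccr6 upstream start: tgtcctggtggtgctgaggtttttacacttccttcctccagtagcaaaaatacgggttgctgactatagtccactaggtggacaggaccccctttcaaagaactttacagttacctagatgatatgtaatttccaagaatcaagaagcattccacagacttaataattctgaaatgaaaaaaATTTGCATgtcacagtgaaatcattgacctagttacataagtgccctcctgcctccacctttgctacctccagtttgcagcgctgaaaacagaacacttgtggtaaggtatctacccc
Ccr6 downstream start: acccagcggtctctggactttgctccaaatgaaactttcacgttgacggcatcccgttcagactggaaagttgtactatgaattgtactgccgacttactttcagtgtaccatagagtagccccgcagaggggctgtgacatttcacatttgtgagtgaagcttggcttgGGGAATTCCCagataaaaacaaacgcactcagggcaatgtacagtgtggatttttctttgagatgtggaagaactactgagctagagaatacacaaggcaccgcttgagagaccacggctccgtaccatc
Ccr9: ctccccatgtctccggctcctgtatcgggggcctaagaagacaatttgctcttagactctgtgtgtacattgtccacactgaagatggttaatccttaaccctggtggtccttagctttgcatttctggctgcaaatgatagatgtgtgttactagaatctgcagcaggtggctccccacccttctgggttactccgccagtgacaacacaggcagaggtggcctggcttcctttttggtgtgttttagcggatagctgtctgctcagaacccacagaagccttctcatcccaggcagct
Cxcr3: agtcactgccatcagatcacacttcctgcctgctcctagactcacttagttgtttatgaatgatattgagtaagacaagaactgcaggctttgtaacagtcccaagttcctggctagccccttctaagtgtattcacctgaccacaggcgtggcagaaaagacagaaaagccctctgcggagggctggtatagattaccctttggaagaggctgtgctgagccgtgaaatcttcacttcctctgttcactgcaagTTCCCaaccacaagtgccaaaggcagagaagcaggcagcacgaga
The capitals mark matches to the same motifs and to ATGCAAAT or ATTTGCAT (the octamer of POU factors, in 1.74% of windows), TGACTCA or TGAGTCA (AP-1, 5.20%) and TGTTTAC or GTAAACA (FOXO, 3.65%). The upstream Ccr6 window held the octamer ATTTGCAT 68 bases before its start site. The downstream Ccr6 window held GGGAA and TTCCC side by side, from 80 and 75 bases before its start, and the Cxcr3 window held TTCCC after its start site. None of the letters searched is in the Ccr9 window. No motif is in all 4 windows, and the Ikaros core is in 2 of them.

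The homing receptors of the follicle and T cell zone gave no call between CLL and non-CLL cells. Cxcr4 was 139, 159, 27.4 and 40.8 TPM in non-CLL libraries 2, 4, 5 and 6, and 66.2, 68.0, 53.5, 15.9 and 37.4 TPM in CLL libraries 1, 2, 4, 5 and 6. It was lower in the CLL library of 4 of 4 same-numbered mice, by between -1.55 and -0.12, but the groups overlapped and the log2 change of -0.71 (95% interval -2.14 to 0.73) had an adjusted p of 0.42. Cxcr5 was 120.1, 134, 135 and 85.8 TPM in non-CLL and 92.9, 155, 96.5, 244 and 299.5 TPM in CLL libraries, with a log2 change of 0.44 (95% interval -0.22 to 1.11, adjusted p = 0.297) and a lower value in 1 of 4 mice. Ccr7 had the widest spread of the set. It was 202, 128, 178 and 25.8 TPM in non-CLL libraries and 1071, 25.9, 26.6, 88.2 and 84.8 TPM in CLL libraries 1, 2, 4, 5 and 6. CLL library 1 alone was above every other aged library, and the remaining 4 CLL libraries were below 3 of the 4 non-CLL libraries. The log2 change of -0.23 (95% interval -3.09 to 2.64) spans both directions. It was -1.12 without CLL library 1, 0.21 without CLL library 2 and 0.20 without CLL library 4, and none of these was called.

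**Figure D2:**
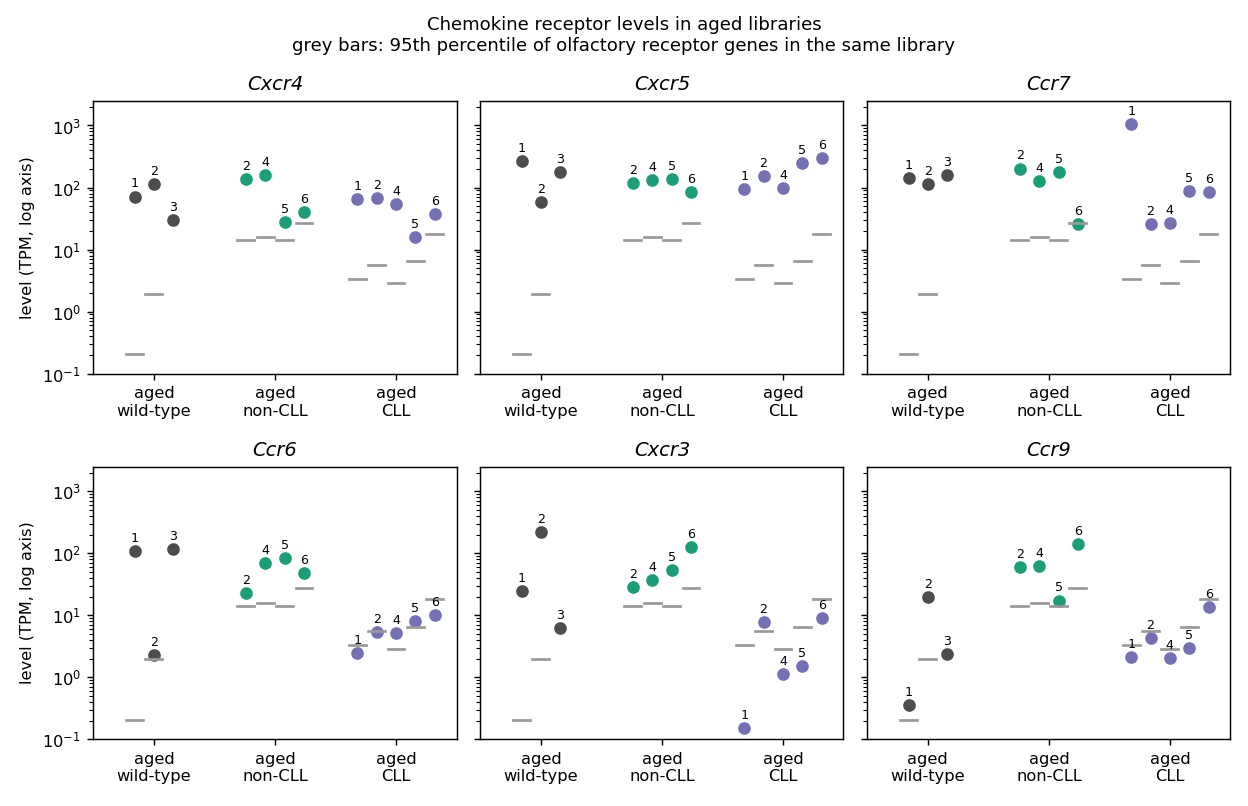
Levels (TPM, log axis) of the 6 receptors in the 3 aged wild-type, 4 non-CLL and 5 CLL libraries; points are libraries with their numbers, and grey bars mark the 95th percentile of the olfactory receptor genes of the same library (not drawn for wild-type library 3, where it is 0). Ccr6, Cxcr3 and Ccr9 lie apart in CLL and non-CLL cells, and many CLL points sit at or under the grey bars.

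Markers of some other cells, but not of all, were also lower in CLL cells. The counts stand beside 5.02% of all genes called lower and a median log2 change of -0.77 for all genes. Of 6 plasmacytoid dendritic cell markers, 4 were lower in CLL than in non-CLL cells, with Siglech, their defining surface lectin, between 1.32 and 18.1 TPM in CLL and between 137 and 784 TPM in non-CLL libraries (log2 change -5.69, SE 0.82, adjusted p = 0.0152). Of 6 NK cell markers 5 were lower, with Ncr1 between 1.16 and 6.66 TPM in CLL and between 14.7 and 149.8 TPM in non-CLL libraries, and 3 of 9 T cell and 3 of 6 conventional dendritic cell markers were lower. None of 10 myeloid and none of 6 plasma cell markers was called, and the highest myeloid sum of the aged libraries, 1680 TPM, was in CLL library 2. B cell markers summed to between 8758 and 14789 TPM in CLL and between 5322 and 10804 TPM in non-CLL libraries. Non-CLL library 6 had the highest Ccr9, Cxcr3, Siglech and Ncr1 of its group and the lowest B cell marker sum, 5322 TPM. The part of other cells in the receptor differences was not tested. Without non-CLL library 6 the log2 changes were -2.96 for Ccr6, -3.07 for Ccr9 and -3.48 for Cxcr3, all called, and the other 3 non-CLL libraries held Siglech at 137 to 298 TPM.

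**Figure D3:**
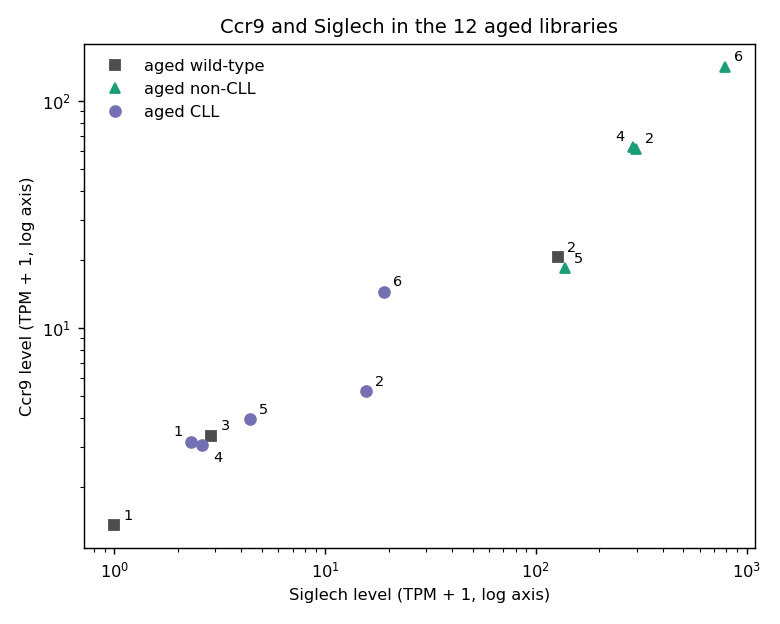
Ccr9 against Siglech, a marker of plasmacytoid dendritic cells, in the 12 aged libraries (both as TPM + 1 on log axes; symbols give the group and numbers the library). The 4 non-CLL libraries and wild-type library 2 (Siglech 126 TPM, Ccr9 19.5 TPM) are the 5 libraries with the highest levels of both genes.

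The genes around the receptors were read against the 5.77% of all genes called between CLL and non-CLL cells. Of 28 signalling genes 2 were lower and 1 higher: Rgs1 (log2 change -2.95, SE 0.51, adjusted p = 0.00323) and Rgs2 (-1.35, SE 0.32), and Rac2, a GTPase of leukocyte migration (0.98, SE 0.29, adjusted p = 0.0469). Rgs1 was 98.7, 29.1, 47.5 and 40.2 TPM in non-CLL libraries 2, 4, 5 and 6 and between 2.01 and 17.7 TPM in CLL libraries. Of the 10 transcription factors 3 were lower and none higher. Tbx21, the gene of T-bet, lay between 0 and 6.16 TPM in CLL and between 24.0 and 51.6 TPM in non-CLL libraries (log2 change -3.47, SE 0.52, adjusted p = 0.000234). Bach2 (-2.22, SE 0.35, adjusted p = 0.000375) and Hif1a (-1.23, SE 0.35, adjusted p = 0.045) were the other two. Among the other 18 chemokine receptors Ccr1 was higher in CLL cells, at 76.8 ± 20.7 TPM (SD, n = 5) against 16.7 ± 0.667 TPM (n = 4), a log2 change of 2.10 (SE 0.29, adjusted p = 8.6e-05). Of 14 ligands listed, Ccl5 (-3.31, SE 0.41, adjusted p = 1.3e-05) and Ccl4 (-1.90, SE 0.58, adjusted p = 0.0498) were lower. Ccl5 is known as a product of T cells and NK cells. Of their markers 3 of 9 and 5 of 6 were called lower. CLL library 1 had a T cell marker sum of 384 TPM, above every non-CLL library (119.9 to 381 TPM). Most of it was Cd3g, at 362 TPM, a gene at 24.5 to 222 TPM in non-CLL libraries. Cd3e was 2.03 TPM in CLL library 1 and 5.50 to 15.0 TPM in non-CLL libraries. The olfactory 95th percentile was 3.36 TPM in CLL library 1 and 14.1 to 27.1 TPM in non-CLL libraries. Of these libraries only non-CLL library 2 had Cd3e above its own percentile, so elsewhere Cd3e was not told from the floor. The part of T cells and NK cells in the Ccl5 difference was not tested.

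CLL cells were next set against aged wild-type B cells, the control of the same age without the mutation. The wild-type cells were selected with magnetic beads and the CLL cells sorted, so here too isolation differed with the group. None of the 6 receptors was called by limma. Of the 6, 1, Cxcr3, had an unadjusted limma p under 0.05 (0.0346), as did 9776 of the 21202 genes tested. The background was 3.54% of 21202 genes called, 2.94% higher and 0.604% lower, and the median log2 change of the 6 was -0.58, beside 0.93 for all genes. All 6 overlapped between the groups, whereas 31.5% of all genes did not. The count of all called genes was 751 and was unstable when a library was left out: 856 without CLL library 2, 479 without CLL library 5, and 437 and 345 without wild-type libraries 1 and 3, but 4258 without wild-type library 2 and 5112, 8222 and 5643 without CLL libraries 1, 4 and 6. A trimmed-mean rescaling moved the median of all genes by -0.58 and called 6446 genes higher and 2648 lower, in place of 623 and 128. Quantile normalization called 33 higher and 48 lower, and subtraction of the olfactory median 48 and 53.

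Ccr6 was 109, 2.28 and 116 TPM in aged wild-type libraries 1, 2 and 3. Libraries 1 and 3 were above every CLL library and library 2 was below all 5. The log2 change of -2.36 (95% interval -5.41 to 0.68, adjusted p = 0.191) became -4.07 (SE 0.52, adjusted p = 4.27e-12) without wild-type library 2, and with library weights it was -3.85 (adjusted p = 0.00101). Cxcr3 was 24.6, 218 and 6.35 TPM in the same libraries, so library 2 was the highest here, and only library 3 lay within the CLL range. Its log2 change was -3.28 (95% interval -6.25 to -0.32, adjusted p = 0.0867). Cxcr3 was called lower in 7 of the 18 alternative settings that tested it, among them without wild-type library 1 (-3.50), 2 (-1.95) or 3 (-4.40), without CLL library 2 (-3.62) or 6 (-3.66), and after trimmed-mean rescaling (-4.09).

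The other 4 receptors overlapped between CLL and aged wild-type cells. Ccr7 was 145, 114 and 161 TPM in the wild-type libraries, above the 4 CLL libraries other than library 1. Its log2 change of -0.62 (95% interval -3.68 to 2.43) became -1.52 (SE 0.40, adjusted p = 0.0351) without CLL library 1. Cxcr5 was 271, 59.0 and 175 TPM, with a log2 change of 0.17 (95% interval -1.04 to 1.39) that was -0.45 without wild-type library 2. Cxcr4 was 71.6, 116 and 29.7 TPM, with a log2 change of -0.54 (95% interval -1.57 to 0.49) that trimmed-mean rescaling made -1.40 (adjusted p = 0.035). Ccr9 was 0.355, 19.5 and 2.36 TPM, with a log2 change of 0.12 (95% interval -1.36 to 1.60). Within the set, the 3 wild-type libraries disagreed most on Ccr6, Cxcr3, Ccr9 and Cxcr5, and library 2 was the extreme value each time.

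The background for the genes around the receptors was 0.604% of all genes called lower and 2.94% higher, which was unstable as given above. Of the regulators, 4 of 10 were lower in CLL than in aged wild-type cells and none was higher. They were Tbx21 (log2 change -3.28, SE 0.59, adjusted p = 0.000365), Bach2 (-2.51, SE 0.43), Hif1a (-1.61, SE 0.37) and Nfkb2 (-1.16, SE 0.35). Nfkb2 passed only narrowly (limma adjusted p = 0.0499). Tbx21 was 17.1, 52.2 and 29.3 TPM in wild-type libraries, all above the highest CLL library at 6.16 TPM. Ccr1 was again higher (3.53, SE 0.53, adjusted p = 0.00144) and was the only call among the other 18 receptors, and Ccl5 was lower (-2.59, SE 0.49, adjusted p = 0.000683). The comparisons with wild-type and with non-CLL cells share the CLL libraries, so their values stand side by side and not as independent results. Among the 28 signalling genes Rac2 was higher (1.14, SE 0.30) and Gnb1 lower (-0.96, SE 0.28). Gnb1 was at 6549 ± 1590 TPM (SD, n = 5) in CLL and 12615 ± 2448 TPM (n = 3) in aged wild-type cells. In young wild-type cells it was at 124 ± 5.53 TPM (n = 3), and the source of that gap was not tested.

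Non-CLL cells were compared with aged wild-type cells, which asks what differs in the B cells that were not sorted as leukaemic. Ccr9 was the only receptor called of 6, against a background of 57.3% of 22150 genes called, 55.8% higher and 1.48% lower, and the median log2 change of the 6 was 0.37, beside 1.65 for all genes. All 6 overlapped between the groups, whereas 56% of all genes did not. The calls moved from 12353 higher and 328 lower to 9772 and 6850 after trimmed-mean rescaling, 15 and 24 after quantile normalization and 31 and 12 after subtraction of the olfactory median. The share of 1 in 6 lay below the background. The log2 change of Ccr9 was 3.63 (SE 0.95, limma adjusted p = 0.00929), and the groups overlapped because wild-type library 2, at 19.5 TPM, was above non-CLL library 5, at 17.3 TPM. The call was lost under a filter of 20 TPM (adjusted p = 0.102), quantile normalization (0.171) and subtraction of the olfactory median (0.0859), and without wild-type library 2 the log2 change was 4.72 (adjusted p = 0.000859). All 6 plasmacytoid dendritic cell markers were called higher in the same comparison, Siglech by a log2 change of 5.44 (SE 1.45, adjusted p = 0.0102), and their part in the Ccr9 difference was not tested.

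The remaining receptors were not called in non-CLL against wild-type cells. The log2 changes were 0.57 for Ccr6 (95% interval -2.09 to 3.22), 0.61 for Cxcr3 (-1.72 to 2.94), 0.17 for Cxcr4 (-1.41 to 1.76), -0.27 for Cxcr5 (-1.28 to 0.74) and -0.40 for Ccr7 (-1.86 to 1.07). Aged wild-type library 2 decided several of these. Without it Cxcr3 was called higher (1.95, SE 0.67, adjusted p = 0.0372), Cxcr5 was called lower (-0.89, SE 0.28, adjusted p = 0.0246), and Ccr6 changed sign to -1.14 (SE 0.48, adjusted p = 0.0738). Trimmed-mean rescaling, which moved the median of all genes by -0.90, turned Ccr6 (-0.93), Cxcr3 (-0.90) and Cxcr4 (-1.38) negative and called Ccr7 (-1.96) and Cxcr5 (-1.84) lower. Neither ratio passed in the aged comparisons, where exact permutation p-values lay between 0.254 and 0.914 before adjustment and the smallest adjusted value was 0.677. For non-CLL against wild-type cells, 4 libraries against 3 allow no permutation p below 0.0571, so neither ratio could pass there.

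Around the receptors, 14 of the other 18 chemokine receptors and 8 of 14 ligands were called higher in non-CLL than in aged wild-type cells, against the 55.8% of all genes called higher. Ccr4, which had the largest change among those 18 receptors (log2 3.06, SE 0.37), lay between 4.25 and 11.9 TPM in non-CLL libraries, within reach of the floor of the same libraries. Of the signalling genes, Rgs1 was higher by 2.86 (SE 0.45, adjusted p = 0.000221) and Rgs2 by 2.01 (SE 0.31, adjusted p = 0.000171), and of the regulators Klf2 was higher (1.03, SE 0.31) and Relb lower (-0.92, SE 0.32). Rgs1 was 3.66, 10.4 and 4.93 TPM in wild-type libraries, below all 4 non-CLL libraries.

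**Figure D4:**
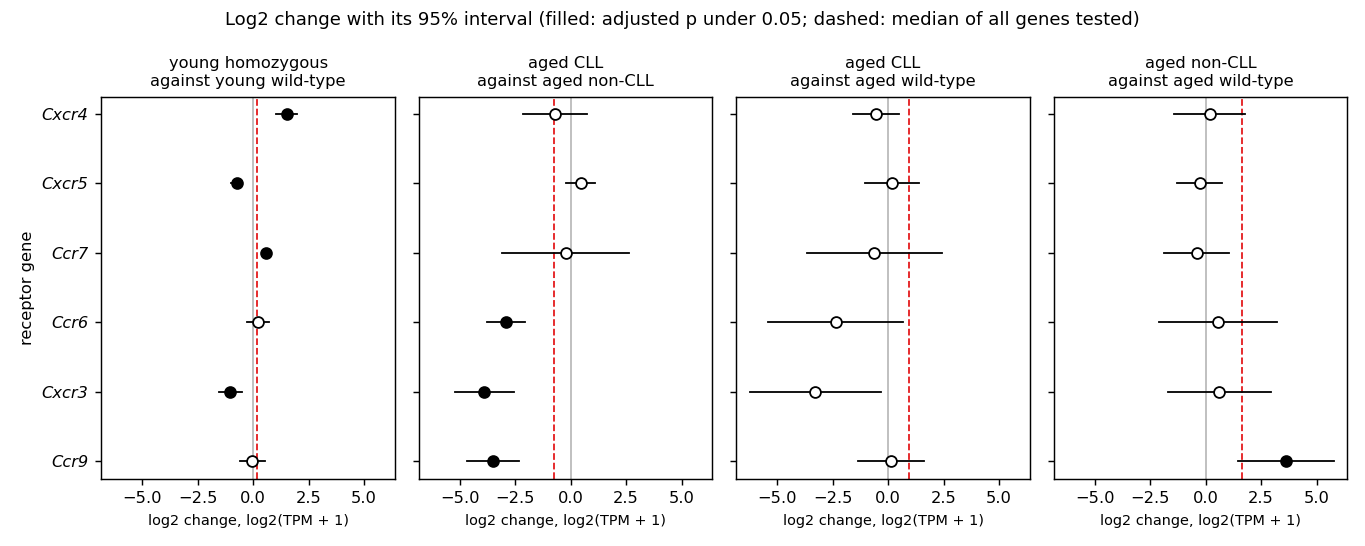
Log2 change of each receptor on the log2(TPM + 1) scale with its 95% interval (limma) in the 4 comparisons; filled points have an adjusted p under 0.05, the grey line is 0 and the dashed line is the median of all genes tested. Intervals are narrowest in the young comparison, and Ccr6, Cxcr3 and Ccr9 lie left of the dashed line between CLL and non-CLL cells.

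Both the total of the set and its makeup were read in each library. The 6 receptors summed to 547 ± 66.9 TPM in aged wild-type (SD, n = 3), 531 ± 60.4 TPM in non-CLL (n = 4) and 500 ± 423 TPM in CLL cells (n = 5), where the sum ran from 185 TPM in library 4 to 1235 TPM in library 1. In CLL library 1 Ccr7 made up 86.7% of the sum. In the other 4 CLL libraries Cxcr5 led, with 52.2% to 67.6% of the sum. Ccr6, Ccr9 and Cxcr3 together were a minor part of every CLL library, with shares of at most 2.81%, 2.96% and 2.96%. In non-CLL library 6 Ccr9 and Cxcr3 made up 30.1% and 26.9%, and in aged wild-type library 2 Cxcr3 made up 41.2%. In the other 2 aged wild-type libraries Cxcr5 led with 43.6% and 35.7%.

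**Figure D5:**
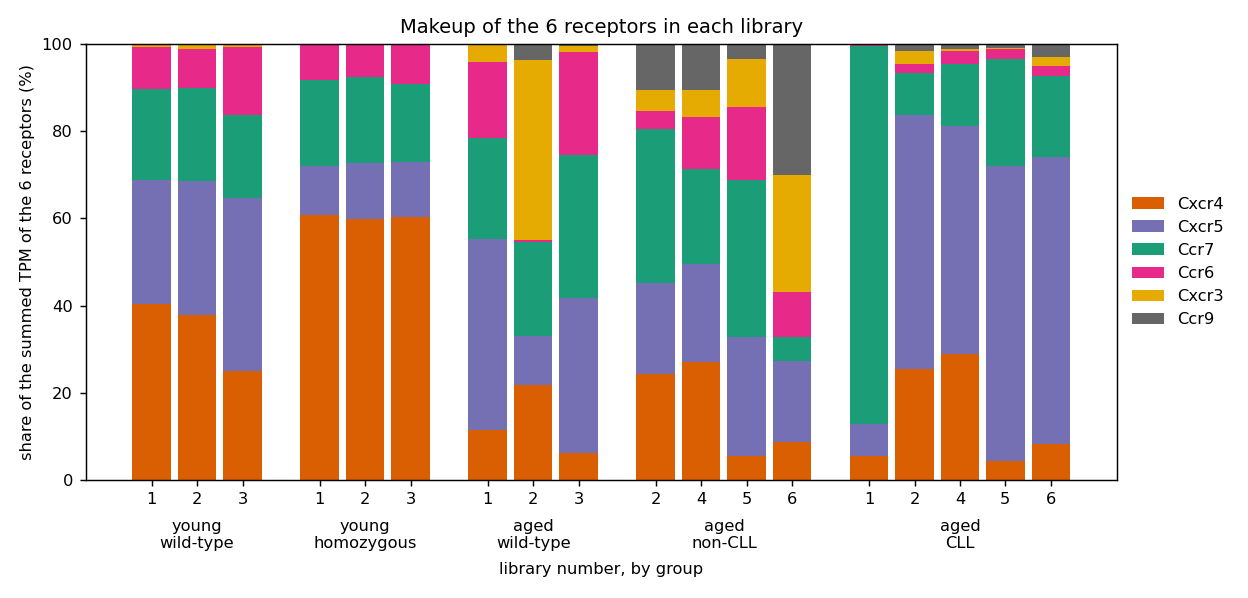
Share of each receptor (%) in the summed TPM of the 6 in each of the 18 libraries, stacked to 100.0% and grouped by cell group. Cxcr4 takes 59.8% to 60.7% in the young homozygous libraries, Cxcr5 leads in 4 of 5 CLL libraries, and Ccr7 fills most of CLL library 1.

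For each receptor the genes (up to 3) whose levels followed it most closely over the 12 aged libraries were found by Pearson correlation of log2(TPM + 1) among 7845 genes with at least 20 TPM in at least 3 of these libraries. The libraries share group, floor and scaling, so these values are a description. Ccr6 was followed by 1300014I06Rik (r = 0.977), B3gnt8 (0.971) and Satb1 (0.961), all of them lowest in the CLL libraries and aged wild-type library 2. Ccr9 was followed by F630111L10Rik (0.984), Adam11 (0.979) and Lrp8 (0.977), whose levels reached 36.9 to 71.9 TPM in non-CLL and at most 10.3 TPM in CLL libraries. Cxcr3 was followed by 0610010F05Rik (0.928), Gnb4 (0.927) and Atp1b1 (0.913), and Cxcr5 by Map4k2 (0.938) and Acap1 (0.892). Likeness was weaker for Ccr7, led by Nub1 (0.875), Cd83 (0.866) and Sepw1 (0.842), and for Cxcr4, led by Nqo2 (0.815), Actr1a (0.795) and Zc3h11a (0.791). Cd83, an activation marker of B cells, lay between 911 and 5576 TPM in the CLL group. Ccr7 was 1071 TPM in CLL library 1, above every other aged library, and its correlations were not taken without that library.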

How the data were processed

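RNA-seq values were deposited by the authors as TPM per gene and library in 2 tables, 1 for young and 1 for aged mice; for the young table the unit was read from columns that sum to the same total. The submitters' processing notes name STAR 2.4.0.1, Bowtie2 2.3.4.1, MACS2 2.2.0 and mm10; no source used here names the quantifier or annotation behind the TPM values. TPM holds no read counts, so depth is unknown and no counting interval is given. Left out were 26 young and 25 aged entries whose names had become dates and 887 young entries without a name (4.44% to 9.36% of a library's TPM); 26266 young and 22781 aged genes were kept, 20776 of them shared. No column was left unmapped. Chromatin libraries were not analysed here.

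Each table was tested on its own with limma (3.58.1, under R 4.3.3; two-sided moderated test with intensity trend, robust) on log2(TPM + 1), leaving out genes that reached 1 TPM in fewer libraries than the smaller group has, and Benjamini-Hochberg adjustment over all genes tested. Ratios were tested by exact permutation (Python 3.11.15, scipy 1.17.1). Alternatives were other pseudocounts, filters, scalings, library weights, a joint fit, a mouse block, and each library left out. The fits were tested on simulated data. Named genes were the 6 receptors, Ikzf3 and Cd5 as checks, Siglech and Ncr1 as markers, called genes of the fixed lists, at most the 5 largest changes per list, comparison and direction, and the 3 genes most like each receptor; a few results that this rule covers are not reported here. The members and lists were chosen with earlier results of these data known. CLL and non-CLL libraries of 1 number come from the same mouse, per the series text; their deviations from the group means correlated by -0.06, -0.01, 0.08 and 0.19. Promoter sequences are from RefSeq, GRCm38.p6, matched for 4 of 6 genes.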

Additional observations from a re-analysis of the deposited data

Results flagged for a closer look

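In each group of 4 or 5 libraries, the gap between the extreme value and its nearest neighbour was compared with the whole range of the group; 16 such groups were examined, and chance singles out about 1 in 20. Ccr7 in CLL library 1, at 1071 TPM, stood far above the other 4 CLL libraries. The log2 ratio of Ccr7 to Cxcr5 in the same library, 3.51, stood apart in the same way. Ccr9 in CLL library 6, at 13.5 TPM, was the highest of its group; the median olfactory receptor gene of that library lay at 9.66 TPM. The part of the floor in that value was not tested.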

How the results depend on the processing

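In young cells Cxcr4, Ccr7 and Cxcr5 were called with 1 direction in all 17 alternatives, and in CLL against non-CLL cells Cxcr3 and Ccr9 in all that tested them and Ccr6 in 21 of 22. Counts over all genes were less stable, and the cause was not tested. In young cells 4002 genes were called with a filter of 20 TPM and 2858 without wild-type libraries 1 and 2, where Ccr6 was -0.25 and Ccr9 0.35; Ccr9 was 0.052 with library weights and -0.24 to 0.24 with 1 library left out.

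Between CLL and wild-type cells the count was 7280 with a pseudocount of 0.5, 210 with 10, 457 with no filter, 149 with 20 TPM, 9094 after trimmed-mean rescaling, 81 after quantile normalization, 101 after background subtraction, 135 without trend, 12299 with library weights, 6712 in a joint fit, and 345 to 8222 with 1 library left out. Receptors called were 2 after trimmed-mean rescaling, 1 with weights, 1 in the joint fit and 0 to 2 with 1 library left out. Ccr9 was -0.11 with a pseudocount of 10, -0.50 after trimmed-mean rescaling, -1.07 after quantile normalization, -0.98 after background subtraction and -0.75 to 1.21 with 1 library left out. Cxcr5 was -0.71 after trimmed-mean rescaling, -0.32 with weights and -0.45 to 0.64 with 1 library left out, and the Cxcr4 to Cxcr5 log2 ratio difference -1.39 to 0.35.

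Between CLL and non-CLL cells the count was 724 with a pseudocount of 0.5, 232 with 20 TPM, 387, 185 and 345 after trimmed-mean, quantile and background scaling, 156 without trend, 11705 with weights, 3387 in the joint fit, 11173 in heterozygous libraries and 325 to 11118 with 1 library left out. Trimmed-mean rescaling gave 0.52 for Ccr7 and 0.036 for Cxcr4; Ccr7 was -1.12 to 0.21 with 1 library left out.

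Between non-CLL and wild-type cells 83, 39 and 43 genes and 0 receptors were called with 20 TPM, quantile normalization and background subtraction, 3 receptors after trimmed-mean rescaling, 2 with weights and 1 to 3 with 1 library left out. Trimmed-mean rescaling gave -0.93 for Ccr6, -0.90 for Cxcr3 and -1.38 for Cxcr4, background subtraction -0.062 for Cxcr4 and weights -1.13 for Ccr6. With 1 library left out Ccr6 was -1.14 to 1.44, Ccr7 -0.71 to 0.26, Cxcr3 -0.50 to 1.95, Cxcr4 -0.36 to 0.62 and Cxcr5 -0.89 to 0.20, and the log2 ratio differences were -0.56 to 0.39 (Ccr7 to Cxcr5) and -0.24 to 1.499 (Cxcr4 to Cxcr5).

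With the replicate number as a block, 697 genes were called between CLL and non-CLL cells (799 over the 4 pairs alone), and the calls of the 6 receptors did not change. In young cells, which share only a number (correlations -0.06, 0.26 and 0.30), the block called 6631 genes. Between CLL and wild-type cells, where numbers mark different mice, it called 2 genes and gave 0.39 for Ccr7, -0.37 for Ccr9 and -0.078 for Cxcr5. For non-CLL against wild-type cells alone, no block could be fitted, since these groups share only number 2. Depth is unknown, and in CLL cells the floor limits Ccr9, Cxcr3 and Ccr6.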
